A study of Mus musculus with 17 samples.

Results

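The comparison set 4 libraries of wild-type (WT) transplanted cells (S28 to S31) against 3 libraries of WT 5xFAD microglia (S22 to S24), 7 of the 17 libraries of the series. Its members were the genes with a normalized read count of 10 or more in at least 3 of these 7 libraries, which 11550 of 13501 genes in the table reached. The WT transplanted cells were circulation-derived myeloid cells carrying wild-type Trem2, taken from the brains of Trem2-KO; 5XFAD hosts that had received BMT+PLX5622, a bone marrow transplant together with a CSF1R inhibitor that depletes microglia. The WT 5xFAD microglia came from brains of untreated mice labelled Trem2-WT; 5XFAD. A second pair with no library in common is given beside it: Trem2-knockout (KO) circulation-derived cells in Trem2-KO; 5XFAD hosts after BMT+PLX5622 (4 libraries, S32 to S35), and microglia of untreated Trem2-KO; 5XFAD mice (3 libraries, S25 to S27). Microglia of mice labelled Normal (3 libraries) are given for their levels. They and the KO pair also entered the model, which estimated the spread of each gene over all 17 libraries. The p-values of a comparison therefore rest partly on libraries outside it.

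5XFAD mice carry mutated human transgenes of familial Alzheimer disease, driven by the neuronal Thy1 promoter and deposit amyloid in the brain. All libraries came from living (DAPI-negative) CD45+CD11b+ brain cells, sorted into TRIzol LS and amplified with the SMART-Seq v4 kit, which does not mark strand, so that overlapping antisense transcripts cannot be told apart. The cells' origin, the treatment and the Trem2 genotype of the host differed together between WT transplanted cells and WT 5xFAD microglia, and the effects of these 3 factors cannot be told apart. The labels name no donor marker in the sort, so any microglia a host had kept would be in the transplant libraries. They give no age and do not say whether libraries are separate animals, so that the p-values rest on the spread among libraries, which may be technical. In bulk samples fewer cells of a type and less RNA per cell cannot be told apart.

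Microglia are the resident macrophages of the brain. They arise from yolk sac progenitors and keep their identity through brain signals such as TGF-beta and through transcription factors, of which Sall1 is the best known. Bone marrow derived cells that enter a brain emptied of microglia take on a microglia-like shape and many microglial genes, but are known to keep a transcriptome of their own. Around amyloid, microglia enter a disease-associated state that depends on Trem2, a lipid-sensing receptor that signals through the adaptor Tyrobp.

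Values of single libraries are given in the order of these numbers. Reads in the table numbered 18065645 to 19636762 per library in WT transplanted cells and 19254498 to 28897267 in WT 5xFAD microglia. Log2 values correlated across genes at 0.9305 to 0.9775 among WT transplanted libraries and at 0.9745 to 0.9833 among WT 5xFAD microglia, against 0.8701 to 0.9022 between the groups. The transplant libraries S30 and S31 lay close together and apart from S28 and S29, as did S22 and S23 within the microglia, though each pair differed by more than sampling noise (chi-square per degree of freedom 4.98 and 6.21). S30 and S31 had the most RNA of some other cell types. Mog, a protein of the myelin surface, had 2.24, 5.69, 794 and 824 normalized reads in WT transplanted cells, against 21.6, 15.1 and 9.77 in WT 5xFAD microglia. Cd3e, part of the T cell receptor complex, had 13.4, 105, 405 and 330.5 normalized reads in WT transplanted cells, against 9.83, 16.6 and 7.16 in WT 5xFAD microglia. Counts of list members called between these groups are therefore given with and without S30 and S31.

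Trem2 (chromosome 17, 48346401 to 48354147, GRCm38) had 38648, 37066, 53908 and 52324 normalized reads in WT transplanted cells, against 51400.2, 53077 and 49346 in WT 5xFAD microglia (log2 fold change −0.19, SE 0.15, adjusted p = 0.364). The groups overlapped, with S28 and S29 below all microglia libraries and S30 above them. Without S30 and S31 the value was −0.44, adjusted p = 0.0535. Tyrobp had 44993, 51095, 76302 and 75651 normalized reads in WT transplanted cells, against 61627, 59645 and 63063 in WT 5xFAD microglia, also overlapping (log2 fold change −0.025, SE 0.18, adjusted p = 0.934). Neither gene passed the test. KO transplanted cells (4499 ± 601, SD, n = 4) and KO 5xFAD microglia (5282 ± 824, n = 3) had lower Trem2 counts.

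Markers of other CD45+ or brain cells were summed per library as a check of what the sort held. Neutrophil genes summed to 25676 to 33451 normalized reads in WT transplanted cells and 15852 to 18978 in WT 5xFAD microglia, and 12 of 16 tested members were higher (12 without S30 and S31). These sums include Csf3r, which is also in the microglia marker list and was not called. It had 8206, 9613, 10985 and 11390 normalized reads in WT transplanted cells. In WT 5xFAD microglia its 11345, 11125 and 12883 normalized reads were most of the sum. T and NK cell genes summed to 979.7 to 5409.8 in WT transplanted cells, against 681 to 732 in WT 5xFAD microglia, with 12 of 16 members higher and 4 without S30 and S31. Oligodendrocyte genes summed to 26909.7 to 53614 in WT transplanted cells, highest in S30 and S31, and to 17462 to 21017 in WT 5xFAD microglia. Of 14 tested members 4 were higher, 1 to 7 without 1 library, and without S30 and S31 1 was higher and 2 were lower (median log2 fold change −0.61). S28 and S29 also lay above the microglia in this sum, though below them for Mog. The sum includes Enpp2, known also from the choroid plexus, and so does not measure oligodendrocytes alone. Summed astrocyte genes were lower, with 1527 to 2302 in WT transplanted cells, against 6335 to 9975 in WT 5xFAD microglia and 7 of 14 members lower (6 without S30 and S31). Among endothelial genes 2 of 13 were lower, and 6 without S30 and S31. The B cell list had 2 of 7 higher and 1 lower (1 and 1 without S30 and S31), the dendritic cell list 2 of 11 higher and 2 lower (2 and 2, and 1 higher without S23), the neuronal list 1 of 4 higher (1, 3 without S28 and 0 without 1 of S22, S23, S24, S29 or S30) and the erythroid list no call among 5 (0). Over all tested genes 14.1% were higher and 14.9% lower (8.23% and 11.4% without S30 and S31). With all libraries the endothelial and dendritic cell counts lay near these shares. The part of the cell types named here in the results that follow was not tested.

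**Figure D1:**
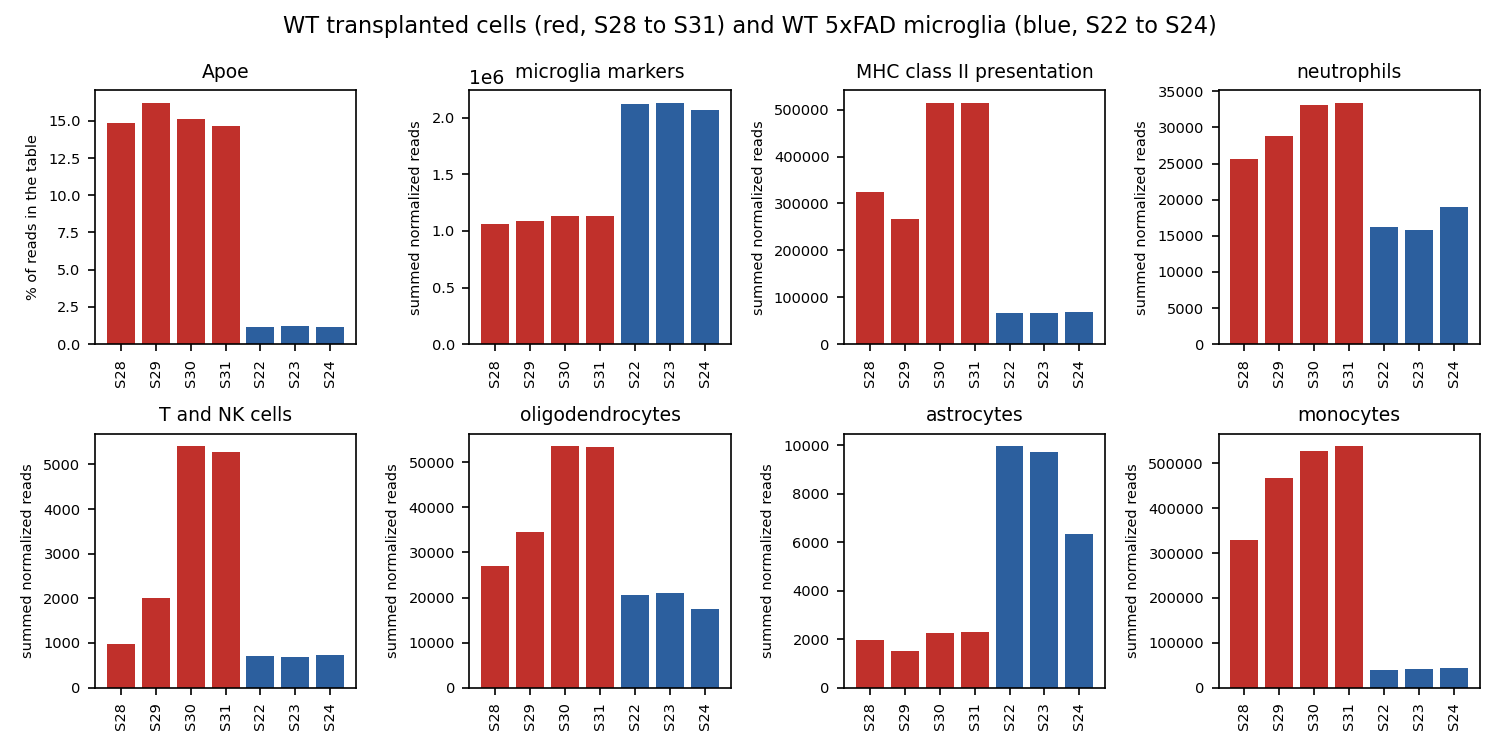
Bars give, per library, the percent of reads in the table taken by Apoe (first panel) and the summed normalized read count of all listed members of 7 gene lists, in the 4 WT transplanted libraries (red) and the 3 WT 5xFAD microglia libraries (blue). All transplanted libraries lie above all microglia libraries for Apoe and for MHC class II, monocyte, neutrophil, T and NK cell and oligodendrocyte genes. They lie below them for microglia and astrocyte genes, and S30 and S31 stand out for T and NK cell and oligodendrocyte genes. Most of the monocyte sum is Lyz2, which is also in other lists, and the oligodendrocyte sum does not measure oligodendrocytes alone.

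Transplanted cells and microglia differed in a large share of the genes measured. At a Benjamini-Hochberg adjusted p under 0.05 in limma, 1630 of 11550 genes were higher in WT transplanted cells (14.1%) and 1716 were lower (14.9%). Of these, 835 were higher and 891 lower by at least 2-fold, and 190 and 264 by at least 8-fold. Without S30 and S31, 626 were higher and 920 lower by at least 2-fold, and 140 and 386 by at least 8-fold. For 20.6% of tested genes all transplanted libraries lay above all microglia libraries, and for 21.5% all lay below (26.1% and 28.5% without S30 and S31). The median log2 fold change over all tested genes was −0.0219. Without S30 and S31, 951 genes were higher (8.23%) and 1312 lower (11.4%), and 920 and 1126 of the calls made with all libraries were made again. The shares over all tested genes, 14.1% and 14.9% (8.23% and 11.4% without S30 and S31), are the background for every count of list members. Members of gene lists named below beyond the 6 with the lowest p were chosen after their values were seen. With any 1 of the 7 libraries left out, 1016 genes stayed called higher and 1106 lower in every case. The log2 fold change of a gene, given in brackets after its name where nothing else is said, is that of WT transplanted cells over WT 5xFAD microglia. It is on the scale of log2(value + 1), which understates the change of genes with low values. Of the tested genes, 198 reached 10 in no microglia library and 118 in no transplanted library, so that these genes could enter only through the group where they were high.

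**Figure D2:**
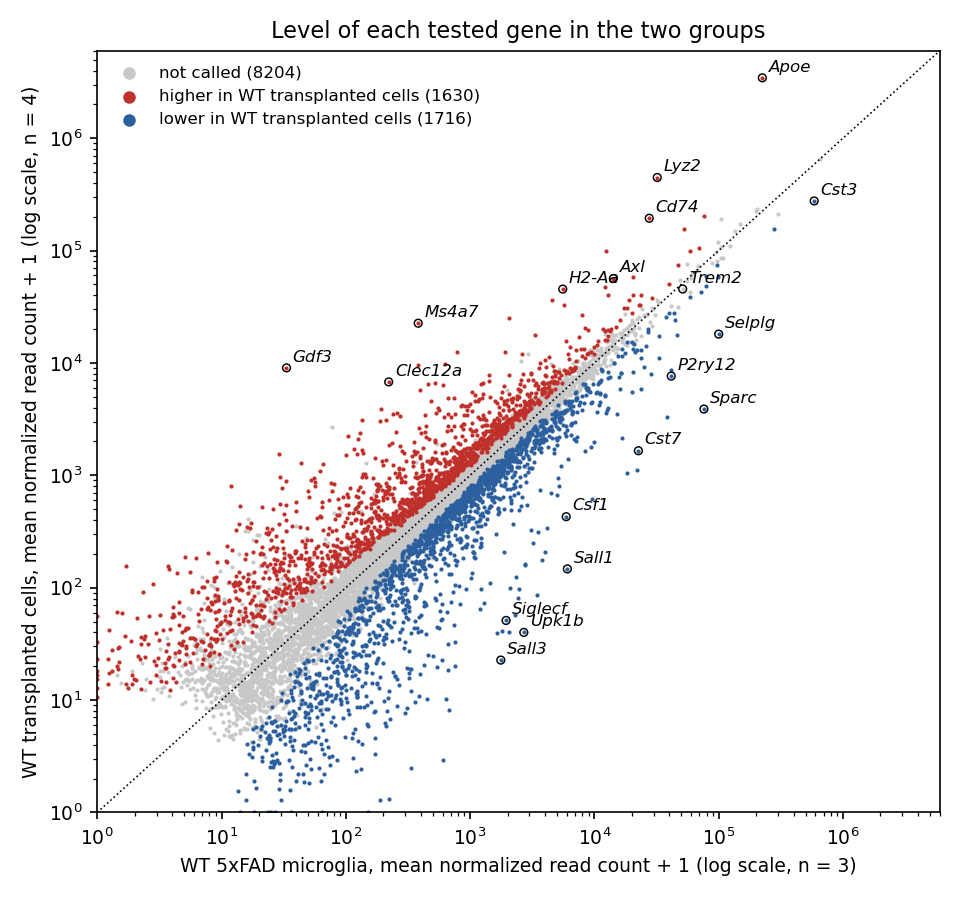
Each point is a tested gene, with its mean normalized read count + 1 in the 3 WT 5xFAD microglia libraries (x axis, log scale) and in the 4 WT transplanted libraries (y axis, log scale). Red points (1630) were called higher and blue points (1716) lower in WT transplanted cells, and Apoe lies at the upper right, with 3445208 in WT transplanted cells against 224284 in WT 5xFAD microglia.

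Among well-measured genes Gdf3, a growth factor of the TGF-beta superfamily, had the largest rise (chromosome 6, 122605403 to 122610087): 6737, 4845, 12405 and 12159 normalized reads in WT transplanted cells, against 27.5, 27.1 and 42.3 in WT 5xFAD microglia (log2 fold change 8.0, SE 0.33, adjusted p = 1.09e-11). All transplanted libraries lay far above all microglia libraries, and S30 and S31 were the highest. The pantetheinase gene Vnn3 had 895, 865, 732 and 746 normalized reads in WT transplanted cells, against 8.84, 12.8 and 11.1 in WT 5xFAD microglia (log2 fold change 6.10, SE 0.32, adjusted p = 8.67e-11). Ms4a7, a membrane protein that marks macrophages of hematopoietic origin in the brain (chromosome 19, 11321039 to 11336146), had 16246, 20411, 26888 and 26708 normalized reads in WT transplanted cells, against 372, 335 and 436 in WT 5xFAD microglia (log2 fold change 5.86, SE 0.21, adjusted p = 2.42e-12). Klra2, a lectin-like receptor of the Ly49 family, had 1468, 1636, 1518 and 1562 normalized reads in WT transplanted cells, against 21.6, 34.6 and 28 in WT 5xFAD microglia (log2 fold change 5.76, SE 0.27, adjusted p = 2.36e-11). Neither gene's groups overlapped, and the 4 transplanted libraries of Klra2 lay within a narrow band. The transcription factor Runx3 rose by 5.13 on the log2 scale, the RNA sensor Tlr8 by 4.96 and the inhibitory lectin Clec12a by 4.95. Acp5, the tartrate-resistant acid phosphatase, rose by 4.79, the leukotriene-inactivating enzyme Cyp4f18 by 4.66 and the apolipoprotein Apoc4 by 4.64. The matrix glycoprotein Emilin1 rose by 4.51 and Aoah, the enzyme that detoxifies lipopolysaccharide, by 4.44. These 12 genes had the largest rises by the rule for named genes, and all stayed called when any 1 of the 7 libraries, or S30 and S31 together, were left out.

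The list of genes of brain macrophages of hematopoietic origin had 21 of 23 tested members higher, none lower and a median log2 fold change of 2.47 (21 higher without S30 and S31). Such genes are listed because earlier studies found them high in these cells, so their direction is not independent evidence. Ccr1, a chemokine receptor, had 6588, 5799, 5153 and 5520.4 normalized reads in WT transplanted cells, against 414, 357 and 404 in WT 5xFAD microglia (log2 fold change 3.87, SE 0.18, adjusted p = 2.5e-11). Cybb, the catalytic subunit of the phagocyte oxidase, had 26585, 22384, 25172 and 25397 normalized reads in WT transplanted cells, against 1988, 1969 and 2151 in WT 5xFAD microglia (log2 fold change 3.61, SE 0.16, adjusted p = 2.03e-11). The ion channel related gene Tmem176a rose by 2.5, and the mannose receptor Mrc1 by 2.28. Apobec3, a restriction factor (0.23, adjusted p = 0.173), and Fgd2, an exchange factor of the cytoskeleton (−0.17, adjusted p = 0.543), did not pass, and Apobec3 did pass without S30 and S31 (log2 fold change 0.39). F10 was too low to be tested.

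Markers of border-associated macrophages, the macrophages of meninges and perivascular spaces, split. Of 17 tested members 11 were higher and 1 lower (8 and 3 without S30 and S31). The fatty acid scavenger receptor Cd36 had 3229.8, 3194, 3817 and 4151 normalized reads in WT transplanted cells, against 276, 205 and 287 in WT 5xFAD microglia (log2 fold change 3.81, SE 0.20, adjusted p = 9.41e-11). The platelet chemokine gene Pf4 had 3358, 3931, 5659 and 5308 normalized reads in WT transplanted cells, against 454, 488 and 519 in WT 5xFAD microglia (log2 fold change 3.19, SE 0.17, adjusted p = 1.22e-10), and the lectin Clec4n rose by 3.65. Cd163, the hemoglobin scavenger receptor, fell to 131, 40.9, 61.8 and 59.8 normalized reads in WT transplanted cells, against 459, 453 and 363 in WT 5xFAD microglia (log2 fold change −2.64, SE 0.38, adjusted p = 3.67e-05). Lyve1, a hyaluronan receptor that defines a perivascular subset, stood at −1.10, adjusted p = 0.127, and was called lower without S30 and S31 (−2.03, adjusted p = 0.00965). Of 17 monocyte genes 11 were higher and none lower (7 without S30 and S31). Lysozyme (Lyz2) had 312229, 449079, 507256 and 518934 normalized reads in WT transplanted cells, against 29531, 32869 and 33653 in WT 5xFAD microglia (log2 fold change 3.78, SE 0.21, adjusted p = 2.98e-10). Reads of Lyz2 and its near-identical copy Lyz1 may have been divided between them. Ly6c2, the classical monocyte surface marker, had 795, 337, 594 and 665 normalized reads in WT transplanted cells, against 174, 203 and 138 in WT 5xFAD microglia (log2 fold change 1.74, SE 0.36, adjusted p = 0.00118). The recruitment receptor Ccr2 had 561, 232, 413 and 419.6 normalized reads in WT transplanted cells, against 298, 305 and 335 in WT 5xFAD microglia, with no call (0.31, adjusted p = 0.483).

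**Figure D3:**
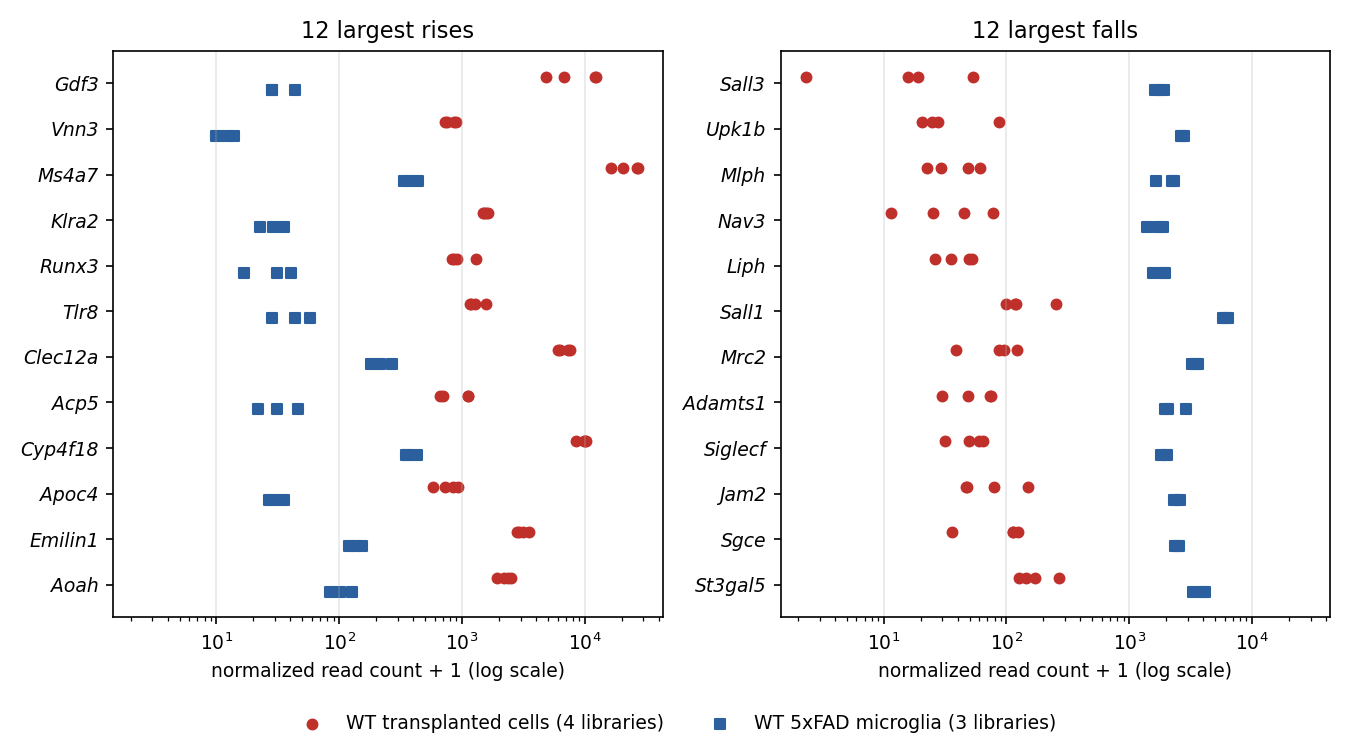
Points give the normalized read count + 1 (log scale) of each library for the 12 largest rises (left panel) and the 12 largest falls (right panel), with WT transplanted cells as red circles and WT 5xFAD microglia as blue squares. The groups lie far apart for each gene, as the choice of genes required, and Sall3 has the widest spread among transplanted libraries, 52.6, 18.2, 1.31 and 14.6.

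The 12 largest falls were led by genes of microglial identity. Sall3, a zinc finger factor related to Sall1, fell to 52.6, 18.2, 1.31 and 14.6 normalized reads in WT transplanted cells, against 1759, 1899.7 and 1634 in WT 5xFAD microglia (log2 fold change −6.99, SE 0.76, adjusted p = 1.39e-06). Sall1 (chromosome 8, 89027235 to 89044162), which holds microglia in their resident state, fell to 250.5, 98.9, 116 and 118 normalized reads in WT transplanted cells, against 6103, 6317 and 5765 in WT 5xFAD microglia (log2 fold change −5.47, SE 0.40, adjusted p = 7.1e-09). S28 was the highest transplanted library for both genes. Upk1b, a tetraspanin, fell to 86.1, 19.3, 23.7 and 26.8 normalized reads in WT transplanted cells, against 2775, 2624 and 2709 in WT 5xFAD microglia (log2 fold change −6.35, SE 0.39, adjusted p = 9.02e-10). The vesicle adaptor Mlph stood at −5.77, the cytoskeletal gene Nav3 at −5.69 and the phospholipase Liph at −5.50. Mrc2, a collagen receptor, stood at −5.44, the protease Adamts1 at −5.41 and the junction protein Jam2 at −5.09. Siglecf, a sialic acid receptor known from eosinophils, fell to 48.1, 30.7, 63.1 and 58.5 normalized reads in WT transplanted cells, against 2001, 1805 and 2028 in WT 5xFAD microglia (log2 fold change −5.30, SE 0.23, adjusted p = 1.68e-11). Sgce, a sarcoglycan, stood at −4.82, and St3gal5, which makes the ganglioside GM3, at −4.47. These 12 calls too held without any 1 library and without S30 and S31.

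Of 32 markers of microglia, most of them surface or secreted proteins, 28 were lower and none higher (median log2 fold change −1.19, 26 lower without S30 and S31). The list also holds genes of other kinds, such as Nav3, Bin1, Ldhb and Sall1, which is counted again among the transcription factors. Summed over the list, the normalized read count was 1064938 to 1131828 in WT transplanted cells and 2067388 to 2134409 in WT 5xFAD microglia. The size of the fall varied widely. Sparc, a secreted matrix-binding protein, fell to 5255, 3059, 3585 and 3637 normalized reads in WT transplanted cells, against 77163, 79050.4 and 71822 in WT 5xFAD microglia (log2 fold change −4.32, SE 0.20, adjusted p = 2.03e-11). Slc2a5, the fructose transporter, fell by 4.16, the endothelial receptor Ecscr by 4.10, and the adhesion receptor Adgrg1 by 4.33. The purinergic receptor P2ry12 fell to 10483, 6576, 6579.5 and 6899 normalized reads in WT transplanted cells, against 41038, 37026 and 46385 in WT 5xFAD microglia (log2 fold change −2.46, SE 0.19, adjusted p = 1.64e-08), with S28 the highest transplanted library. Siglech fell by 1.85, the fractalkine receptor Cx3cr1 by 0.76 and Tmem119 by 0.75. The last of these lost its call without S30 and S31 (−0.72, adjusted p = 0.0674). Fcrls (0.028, adjusted p = 0.876), Csf1r (−0.50, adjusted p = 0.139), the transporter Slco2b1 (−0.56, adjusted p = 0.117) and Csf3r (−0.24, adjusted p = 0.397) did not pass. Csf1r had 211446, 214669, 211507 and 216212 normalized reads in WT transplanted cells, against 315720, 308893 and 281812 in WT 5xFAD microglia, without overlap. Its SE (0.25) was set over all 17 libraries, among them KO 5xFAD microglia with 153808, 339016 and 156174. Fcrls, an Fc receptor-like gene used to tell microglia from blood monocytes, had 90268, 100483, 98042 and 98896 normalized reads in WT transplanted cells, against 94655, 92929.6 and 97502 in WT 5xFAD microglia, overlapping in range.

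Among 18 transcription factors of microglia 7 were lower and none higher, 3 without S30 and S31 and 2 to 4 without 1 of S22, S23, S24 or S31. Beside Sall1 and Sall3 they were factors whose calls were lost when single libraries were left out. Mef2c stood at −0.57 and lost its call without 1 of S22, S24, S29 or S31 (−0.56 to −0.51). Smad3, a transducer of TGF-beta, stood at −0.86 and lost it without any of the 7 libraries (−0.89 to −0.83). Runx1 stood at −0.63 and lost it without 1 of S22, S23 or S31 (−0.59 to −0.51), and Tal1 at −1.01 without S22 (−0.88). These 4 also lost their calls without S30 and S31. The immediate early gene Egr1 stood at −1.05 and lost its call without 1 of S22, S23, S24, S28 or S29 (−1.11 to −0.70), but kept it without S30 and S31 (−1.73, adjusted p = 0.00358). The other 11 factors did not pass, among them Spi1, which encodes PU.1, the master factor of macrophages (0.23, adjusted p = 0.081) and Irf8 (0.0022, adjusted p = 0.993).

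Apoe, which encodes the main lipid carrier of the brain (chromosome 7, 19696109 to 19699188), was the most abundant of the genes that rose. It had 3111696, 3623707, 3597175 and 3448256 normalized reads in WT transplanted cells, against 217208, 234867 and 220777 in WT 5xFAD microglia (log2 fold change 3.94, SE 0.19, adjusted p = 4e-11). It made up 15.2% ± 0.713 of reads in the table in WT transplanted cells (SD, n = 4), 1.19% ± 0.0463 in WT 5xFAD microglia (n = 3) and 0.555% ± 0.0582 in normal microglia (n = 3). Of 33 genes of lipid handling 15 were higher and 8 lower (14 and 7 without S30 and S31). Those higher included receptors and carriers. Msr1, the class A scavenger receptor, had 3610.0, 2907, 2811 and 2798 normalized reads in WT transplanted cells, against 171, 209 and 187 in WT 5xFAD microglia (log2 fold change 3.99, SE 0.24, adjusted p = 7.03e-10). Pltp, which transfers phospholipid, rose by 2.10, the apolipoprotein Apoc1 by 2.55, and the lipid droplet coats Plin3 and Plin2 by 1.56 and 1.01. Among those lower were lipoprotein lipase (Lpl, −1.32), the lipoprotein receptor Scarb1 (−1.43), the desaturase Scd1 (−2.99), acetyl-CoA carboxylase (Acaca, −1.99) and Fabp3 (−3.74). Uptake receptors thus went in both directions, with Cd36 and Msr1 higher. The nuclear receptors Pparg (3.19) and Nr1h3 (LXR alpha, 2.15) were higher. The sterol exporter Abca1 had 11198, 8251, 8728 and 7973 normalized reads in WT transplanted cells, against 6686, 7263 and 5494 in WT 5xFAD microglia, with no call (0.48, adjusted p = 0.052). In the cholesterol synthesis list 3 of 23 genes were higher and 6 lower, and 0 and 6 without S30 and S31. Without S23 the lower ones numbered 3, and without 1 of S22, S23, S24 or S30 1 gene was higher. Hmgcs1, an early enzyme of the pathway, fell to 306, 399, 322 and 322 normalized reads in WT transplanted cells, against 805, 737 and 776 in WT 5xFAD microglia (log2 fold change −1.20, SE 0.16, adjusted p = 1.13e-05), and the squalene epoxidase Sqle fell by 1.65.

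Genes of the disease-associated state went in both directions. In the stage 1 list, whose genes are known to change without Trem2, 5 of 11 tested members were higher and 0 lower (4 and 1 without S30 and S31). They were Apoe, Lyz2, the ferritin heavy chain Fth1 (1.54), H2-D1 (0.73) and Timp2 (0.38), the last called neither without S30 and S31 (0.35) nor without 1 of S22 or S23 (0.38 to 0.37). In the stage 2 list, which in mice needs Trem2, 8 of 32 were higher and 12 lower (5 and 13 without S30 and S31, and as few as 5 higher without 1 of S22, S23 or S30), with a median log2 fold change of −0.23. Axl, a receptor for dying cells, had 52568, 55631, 58451 and 58919 normalized reads in WT transplanted cells, against 14171, 14160.2 and 14292 in WT 5xFAD microglia (log2 fold change 1.99, SE 0.16, adjusted p = 1.9e-08). The secreted peroxidase Gpx3 (2.48), galectin 3 (Lgals3, 2.31), Plin2 and the tetraspanin Cd63 (0.94) were higher too.

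Cst7, an inhibitor of lysosomal proteases and a defining gene of the state, fell to 1079, 1665, 1922 and 1950.3 normalized reads in WT transplanted cells, against 21691, 21157 and 24879 in WT 5xFAD microglia (log2 fold change −3.80, SE 0.31, adjusted p = 3.12e-08). Csf1, a growth factor of microglia, fell to 284, 332, 569 and 524 normalized reads in WT transplanted cells, against 5639, 5646 and 6502 in WT 5xFAD microglia (log2 fold change −3.85, SE 0.31, adjusted p = 2.16e-08). S30 and S31 were the higher transplanted libraries for both. The protease inhibitor Serpine2 had 3573, 2998, 3291 and 3291 normalized reads in WT transplanted cells, against 37939.9, 37637 and 39652 in WT 5xFAD microglia (log2 fold change −3.55, SE 0.17, adjusted p = 2.5e-11), and the pyrophosphate transporter Ank had 1985, 1956, 2007 and 1981 normalized reads in WT transplanted cells, against 9526, 9553 and 10630.5 in WT 5xFAD microglia (log2 fold change −2.32, SE 0.12, adjusted p = 5.93e-11). The chemokine Ccl6 (−2.95), the cathepsin Ctsl (−2.25), the Wnt inhibitor Dkk2 (−5.90), the lysyl oxidase Lox (−5.47), the tetraspanin Cd9 (−1.40) and Sulf2 (−1.20) were also lower. Itgax (−0.48, adjusted p = 0.128), Clec7a (0.10, adjusted p = 0.899), Spp1 (1.06, adjusted p = 0.455), Gpnmb (1.47, adjusted p = 0.197) and Igf1 (0.88, adjusted p = 0.198) did not pass. Gpnmb, a transmembrane glycoprotein of lipid-laden macrophages, had 3053, 4689.6, 7737 and 7609.7 normalized reads in WT transplanted cells, against 1668, 1771 and 2507 in WT 5xFAD microglia. All transplanted libraries lay above all microglia libraries, as they did for Igf1, without passing the test. The spread was set over all 17 libraries, among them KO 5xFAD microglia, which had 802, 54.7 and 980 normalized reads of Gpnmb. Spp1, or osteopontin, had 4776, 10975, 11469 and 12139.7 normalized reads in WT transplanted cells, against 4049, 3794 and 5688 in WT 5xFAD microglia, with S28 within the range of the microglia.

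MHC class II genes, which present peptides of engulfed proteins to CD4+ T cells, showed opposite directions within the pathway. Their promoters share elements that a complex under the control of Ciita recognises, among them a Y box. RefSeq promoters (GRCm38.p6, 250 bases before to 50 after the start) were matched by symbol for 8 of the 11 list members. The promoters of H2-Aa and H2-Eb1, which encode chains of the classical molecules and were higher, and of H2-Oa, whose product restrains peptide loading and which was lower, are shown because they differ in direction of change. Capitals mark the Y box letters CTGATTGG and AGCAAC, part of the X1 box.
H2-Aa, chr17:34287774-34288073, minus strand: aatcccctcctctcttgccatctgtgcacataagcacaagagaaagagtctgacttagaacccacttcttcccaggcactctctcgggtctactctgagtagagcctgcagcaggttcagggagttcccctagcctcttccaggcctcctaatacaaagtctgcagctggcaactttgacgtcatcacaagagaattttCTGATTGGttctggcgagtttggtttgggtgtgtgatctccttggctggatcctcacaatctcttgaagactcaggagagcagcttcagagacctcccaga
H2-Eb1, chr17:34305617-34305916, plus strand: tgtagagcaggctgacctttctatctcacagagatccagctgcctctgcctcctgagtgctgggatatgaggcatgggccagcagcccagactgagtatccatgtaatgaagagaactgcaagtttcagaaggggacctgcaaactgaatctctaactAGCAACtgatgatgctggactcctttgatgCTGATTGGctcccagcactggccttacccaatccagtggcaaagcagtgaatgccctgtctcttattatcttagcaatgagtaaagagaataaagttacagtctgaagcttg
H2-Oa, chr17:34092129-34092428, plus strand: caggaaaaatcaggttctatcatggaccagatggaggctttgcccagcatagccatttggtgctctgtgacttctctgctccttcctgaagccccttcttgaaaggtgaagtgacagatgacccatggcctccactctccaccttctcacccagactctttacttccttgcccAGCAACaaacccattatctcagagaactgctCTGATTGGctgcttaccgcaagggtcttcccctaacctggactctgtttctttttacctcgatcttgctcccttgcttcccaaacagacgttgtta
With the annotated start as position 0, CTGATTGG lay at −51 to −44 in H2-Aa, −62 to −55 in H2-Eb1, −46 to −39 in H2-Oa and −103 to −96 in H2-Eb2. The letters were searched on both strands, were not found in these windows of H2-DMa, H2-DMb1, H2-DMb2 and H2-Ob, and stood in 1346 of 32851 promoters of the table (4.1%). AGCAAC, found in the windows of H2-Eb1, H2-Oa, H2-Ob and, at 2 places, H2-Eb2, and not in those of H2-Aa, H2-DMa, H2-DMb1 and H2-DMb2, stood in 14.8%. The motifs do not overlap each other.

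H2-Aa had 34962, 29929.7, 58215 and 58564 normalized reads in WT transplanted cells, against 5258, 5609 and 5815 in WT 5xFAD microglia (log2 fold change 2.97, SE 0.18, adjusted p = 9.01e-10). H2-Eb1 had 28676, 24714, 45962 and 44447 normalized reads in WT transplanted cells, against 4257, 4730.4 and 4769 in WT 5xFAD microglia (log2 fold change 2.92, SE 0.19, adjusted p = 1.31e-09). Transplanted libraries lay above all microglia libraries for both, and S30 and S31 were the highest. H2-Ab1 (2.90), the invariant chain Cd74 (2.76), the master regulator Ciita (1.99) and the peptide exchange factors H2-DMa (1.27) and H2-DMb2 (1.51) were higher as well, and H2-DMb1 (0.67) lost its call without S30 and S31 (0.36, adjusted p = 0.0618). H2-Oa had 424, 325, 442 and 434 normalized reads in WT transplanted cells, against 1302, 1384 and 1399 in WT 5xFAD microglia (log2 fold change −1.75, SE 0.15, adjusted p = 8.57e-08), and its partner H2-Ob stood at −0.57. In all 8 of 10 tested members were higher and 2 lower (7 and 2 without S30 and S31), with H2-Eb2 too low to be tested. Normal microglia had a mean of 13983 for H2-Aa and 933 for H2-Oa. Summed dendritic cell markers were 20225 to 23436 in WT transplanted cells, against 41310.4 to 42287 in WT 5xFAD microglia. That list shares Siglech, which was lower, with the microglia markers, and Bst2, which was higher, with the interferon response genes. Its sum therefore does not measure dendritic cells alone, and their part in these changes was not tested.

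MHC class I molecules present peptides made in the cell. With all libraries 11 of 19 such genes were higher, and 4 without S30 and S31 (5 without S22), and 1 was lower with and without S30 and S31. H2-K1 had 26759.8, 32545, 43919 and 43221 normalized reads in WT transplanted cells, against 18177, 17898 and 20536 in WT 5xFAD microglia (log2 fold change 0.93, SE 0.16, adjusted p = 0.000185), and the immunoproteasome subunit Psmb9 had 1962, 2046, 2886 and 2582 normalized reads in WT transplanted cells, against 1184, 1299 and 1476 in WT 5xFAD microglia (log2 fold change 0.83, SE 0.14, adjusted p = 0.000166). H2-D1 and Psmb8 were the other genes higher both times, and the trimming peptidase Erap1 (−0.52) was the lower one. Near-identical class I genes such as H2-Q6 and H2-Q7 may share reads and are uncertain. Interferon response genes had 4 of 30 higher and 3 lower (2 and 1 without S30 and S31, and 1 lower without S22 or S31), near the background share. Bst2, or tetherin, had 10448, 11260.0, 13605 and 12835 normalized reads in WT transplanted cells, against 2522, 2593 and 2762 in WT 5xFAD microglia (log2 fold change 2.19, SE 0.14, adjusted p = 9.67e-10), and Oasl1 rose by 1.19. The RNA sensor gene Ddx58 was lower (−0.66), and Ifit1, Isg15 and Irf7 were not called (−0.86, −0.22 and 0.42). For Ifit1 all transplanted libraries nevertheless lay below all microglia libraries.

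Chemokine genes changed in opposite directions. Cxcl16, a membrane-bound ligand of CXCR6, had 16068, 18001, 18836 and 18709 normalized reads in WT transplanted cells, against 3332, 3335 and 3370.3 in WT 5xFAD microglia (log2 fold change 2.42, SE 0.094, adjusted p = 7.79e-12). Cxcl14 had 1178, 1650.0, 1971 and 2038 normalized reads in WT transplanted cells, against 125, 97.2 and 123 in WT 5xFAD microglia (log2 fold change 3.86, SE 0.23, adjusted p = 5.19e-10), and Cxcl1 (3.75), Cxcl2 (1.78), Ccl8 (3.52) and Ccl12 (2.02) were also higher. Ccl9 fell to 392, 287, 286 and 400.1 normalized reads in WT transplanted cells, against 4153, 3878 and 4475 in WT 5xFAD microglia (log2 fold change −3.62, SE 0.16, adjusted p = 1.62e-11), and Ccl3 and Ccl4, chemokines that amyloid-associated microglia make, stood at −2.38 and −2.21. Among receptors Ccr1 and Cxcr4 (3.54) were higher, and Cx3cr1 was lower. The list had 11 of 26 higher and 7 lower (10 and 6 without S30 and S31).

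In the cytokine and NF-kB list 5 of 27 genes were higher and 3 lower (3 and 4 without S30 and S31), near the shares over all tested genes, 14.1% and 14.9%. Il1b, the interleukin 1 beta gene, had 2489, 4907, 6623 and 6763 normalized reads in WT transplanted cells, against 1124, 1000.3 and 1177 in WT 5xFAD microglia (log2 fold change 2.14, SE 0.33, adjusted p = 7.38e-05), lowest in S28. Neutrophils also make Il1b, and their markers were higher as given above. In KO 5xFAD microglia, where neutrophil markers summed to 58685 to 147798 normalized reads, Il1b averaged 937 ± 146 (SD, n = 3). The part of neutrophils in the rise of Il1b was not tested. Il1a, its relative, was lower (−0.95). Il6 fell to 7.83, 0, 13.1 and 8.54 normalized reads in WT transplanted cells, against 68.8, 61.0 and 75.5 in WT 5xFAD microglia (log2 fold change −3.56, SE 0.72, adjusted p = 0.00103), with no read in S29. The NF-kB partner Bcl3 rose by 2.46 and Tnfaip2 by 2.30, while Nfkb1, a subunit of NF-kB, was lower (−0.57). Tnf (−0.71, adjusted p = 0.208) and Il10 (2.08, adjusted p = 0.172) were not called.

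Many surface receptors that sense microbes and glycans were higher. In the list of Fc receptors, Siglecs and C-type lectins 20 of 39 were higher and 5 lower (14 and 5 without S30 and S31). Besides Clec12a, Clec4n and Mrc1, the lectins Clec4d (4.70) and Clec4e (3.55), the macrophage Siglec Siglec1 (2.76) and Cd300ld (2.53) were higher. Siglecf, Siglech, Treml2 (−1.24) and Fcgr3 (−0.64) were among those lower. Pirb and Pira2, paired receptors of near-identical sequence, are uncertain. Of 21 pattern recognition genes 6 were higher and 3 lower (7 and 3 without S30 and S31). Tlr2, a sensor of bacterial lipopeptides, had 15675, 16672, 17806 and 18350.4 normalized reads in WT transplanted cells, against 7419, 7853 and 7439 in WT 5xFAD microglia (log2 fold change 1.18, SE 0.12, adjusted p = 4.16e-07). Tlr3 and Tlr7, sensors of RNA like Tlr8, were lower (−1.60 and −0.88), as was Cd180 (−0.86), and Cd14 (0.81) was higher. Tlr4 stood at −0.00066, adjusted p = 0.999.

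Complement genes had 4 of 20 higher and 4 lower (4 and 5 without S30 and S31). With all libraries these counts were near the shares over all tested genes, 14.1% and 14.9%. C3, the central component, had 1798, 1852, 2082 and 2200.3 normalized reads in WT transplanted cells, against 289, 426 and 347 in WT 5xFAD microglia (log2 fold change 2.5, SE 0.23, adjusted p = 1.85e-07). The properdin gene Cfp rose by 1.73, the anaphylatoxin receptor C3ar1 by 0.65 and the protease C1ra by 1.56. The protease C2 (−2.48) and Itgam (−1.21), the alpha chain of complement receptor 3 and the CD11b of the sort, were lower. The C1q chains C1qa, C1qb and C1qc were not called (0.26, 0.20 and 0.14). Of 19 integrin genes 4 were higher and 7 lower (4 and 3 without S30 and S31). Without 1 of S22, S23, S24, S29, S30 or S31 the lower ones numbered 2 to 4. Itga4, part of the receptor by which leukocytes bind VCAM1, had 621, 641, 498 and 431 normalized reads in WT transplanted cells, against 29.5, 20.3 and 46.2 in WT 5xFAD microglia (log2 fold change 4.11, SE 0.30, adjusted p = 6.01e-09). Itgal, the alpha chain of LFA-1, rose by 4.33. Itgb3 fell to 135, 120.5, 147 and 87.8 normalized reads in WT transplanted cells, against 2238, 2374 and 2412 in WT 5xFAD microglia (log2 fold change −4.27, SE 0.30, adjusted p = 5e-09).

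Genes of TGF-beta signalling, on which microglial identity depends, had 6 of 25 higher and 10 lower (6 and 5 without S30 and S31, and as few as 5 lower without 1 of S22, S23 or S30). Tgfbi, a TGF-beta induced matrix protein, had 12608, 13093, 12232 and 12246 normalized reads in WT transplanted cells, against 2016, 1910.2 and 1765 in WT 5xFAD microglia (log2 fold change 2.73, SE 0.11, adjusted p = 9.09e-12). The type I receptor Acvrl1 rose by 2.41, and the co-receptor Eng (−2.34) and Bmpr1a (−4.29) fell. The receptor Tgfbr1 stood at −0.54 and lost its call without S30 and S31 (−0.40, adjusted p = 0.241) and without 1 of S22, S23, S24, S29, S30 or S31 (−0.58 to −0.49). The ligand Tgfb1 was not called (−0.24, adjusted p = 0.35). Of 29 purinergic and other receptors 10 were higher and 10 lower (9 and 9 without S30 and S31). The adenosine receptor Adora3 fell to 149, 100.1, 84.1 and 101 normalized reads in WT transplanted cells, against 1500.5, 1531 and 1311 in WT 5xFAD microglia (log2 fold change −3.75, SE 0.22, adjusted p = 4.7e-10), and P2ry13 by 0.94. The ATP-gated channel P2rx4 had 8145, 9225, 8937 and 9406 normalized reads in WT transplanted cells, against 3584, 3534 and 3583 in WT 5xFAD microglia (log2 fold change 1.32, SE 0.090, adjusted p = 3.02e-09). The sphingosine receptor S1pr2 (2.64) and the proton sensor Gpr65 (2.90) were higher.

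Among lysosomal genes 9 of 40 were higher and 4 lower (6 and 7 without S30 and S31). The peptidases Ctsc and Ctse rose by 1.5 and 1.90, and Ctsf (−1.37) and Ctsl were lower. Genes of iron and heme handling had 11 of 21 higher and 4 lower (10 and 2 without S30 and S31, and 2 lower without 1 of S22, S23, S29 or S30). The ferroxidase ceruloplasmin (Cp) had 4088, 3219, 3333 and 3402 normalized reads in WT transplanted cells, against 195, 314 and 214 in WT 5xFAD microglia (log2 fold change 3.89, SE 0.18, adjusted p = 2.74e-11). Spic, the factor of red pulp macrophages, had 201, 163, 226 and 163 normalized reads in WT transplanted cells, against 3.93, 8.29 and 0 in WT 5xFAD microglia (log2 fold change 5.71, SE 0.60, adjusted p = 8.93e-07). Biliverdin reductase B (Blvrb) rose by 2.36, the ferritin light chain Ftl1 by 1.41 and heme oxygenase (Hmox1) by 0.93, while the transferrin receptor Tfrc was lower (−1.94).

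Of 24 phagocyte oxidase and antioxidant genes 16 were higher and 1 was lower (9 and 1 without S30 and S31, and 10 higher without S22). Beside Cybb, the oxidase subunit Ncf4 rose by 0.95, the peroxiredoxin Prdx5 by 1.44, the glutathione transferase Gstm1 by 1.5 and Srxn1 by 1.69. Gclc, which starts glutathione synthesis, was lower (−0.90). In glycolysis and the hypoxia response 5 of 27 were higher and 9 lower (4 and 11 without S30 and S31). Hif1a, the hypoxia factor that microglia raise around amyloid, had 2393, 1898, 2315 and 2535 normalized reads in WT transplanted cells, against 6177, 5687 and 7622 in WT 5xFAD microglia (log2 fold change −1.5, SE 0.25, adjusted p = 0.000167), and its target Egln3 fell to 17.9, 28.4, 35.5 and 14.6 normalized reads in WT transplanted cells, against 434, 432 and 508 in WT 5xFAD microglia (log2 fold change −4.27, SE 0.48, adjusted p = 1.77e-06). The phosphofructokinase gene Pfkp (2.15) and the regulator Pfkfb4 (1.01) were higher, and Pdk1 (−1.07) and the lactate exporter Slc16a3 (−1.02) were lower.

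Cell cycle genes had 3 of 37 higher and 5 lower (2 and 3 without S30 and S31, and 2 lower at fewest without S22 or S23). Neither count was above the share over all tested genes, 14.1% higher and 14.9% lower. The D-type cyclins Ccnd2 and Ccnd1 rose by 2.01 and 1.00, Cdk6 was lower (−0.74) and Mki67, a marker of dividing cells, had 31.3, 7.96, 43.4 and 32.9 normalized reads in WT transplanted cells, against 62.9, 56.5 and 69.0 in WT 5xFAD microglia (log2 fold change −1.31, SE 0.66, adjusted p = 0.151). Immediate early genes, which respond to tissue handling as well as to signals, had 3 of 23 higher and 5 lower (1 and 4 without S30 and S31, and 1 higher at fewest without S22 or S23), with Egr2 at −1.97, Klf4 at −1.37 and Fosl2 at 1.52. Of 20 p53 targets 1 was higher, namely Sesn1 (0.79), and 3 were lower (1 and 4 without S30 and S31, 3 higher without S28, 2 without S30 and 1 lower without S24). With all libraries the p53 counts and the count of immediate early genes higher were near or under the shares over all tested genes. Of 40 ribosomal protein genes 12 were higher, 0 without S30 and S31, and their number varied from 4 to 31 without 1 of S22, S23, S28, S30 or S31. Of 38 nuclear genes of oxidative phosphorylation 10 were higher, and 2 without S30 and S31, with 3 to 20 without 1 of the same libraries. Mitochondrially encoded genes had no call among 12, and their share of reads was 0.121% ± 0.0261 in WT transplanted cells (SD, n = 4) and 0.132% ± 0.0105 in WT 5xFAD microglia (n = 3).

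Mouse counterparts of human Alzheimer risk genes had 9 of 36 higher and 9 lower (8 and 7 without S30 and S31), each above the background share, and overlap other lists. Besides Apoe, 3 members of the Ms4a cluster on chromosome 19 rose, with Ms4a4a at 1943, 1693, 1171 and 1439 normalized reads in WT transplanted cells, against 144, 106 and 116 in WT 5xFAD microglia (log2 fold change 3.65, SE 0.30, adjusted p = 3.4e-08), Ms4a6c at 2.86 and Ms4a6b at 1.75. The presenilin gene Psen2 (1.18) and the sorting receptor Sorl1 (1.24) were higher. The endocytic genes Bin1 (−0.81) and Picalm (−1.08), the beta-secretase Bace1 (−1.14) and the adaptor Abi3 (−0.59) were lower. Trem2, Inpp5d (−0.45, adjusted p = 0.187), Plcg2 (−0.14, adjusted p = 0.608) and Cd33 (0.12, adjusted p = 0.55) were not called.

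**Figure D4:**
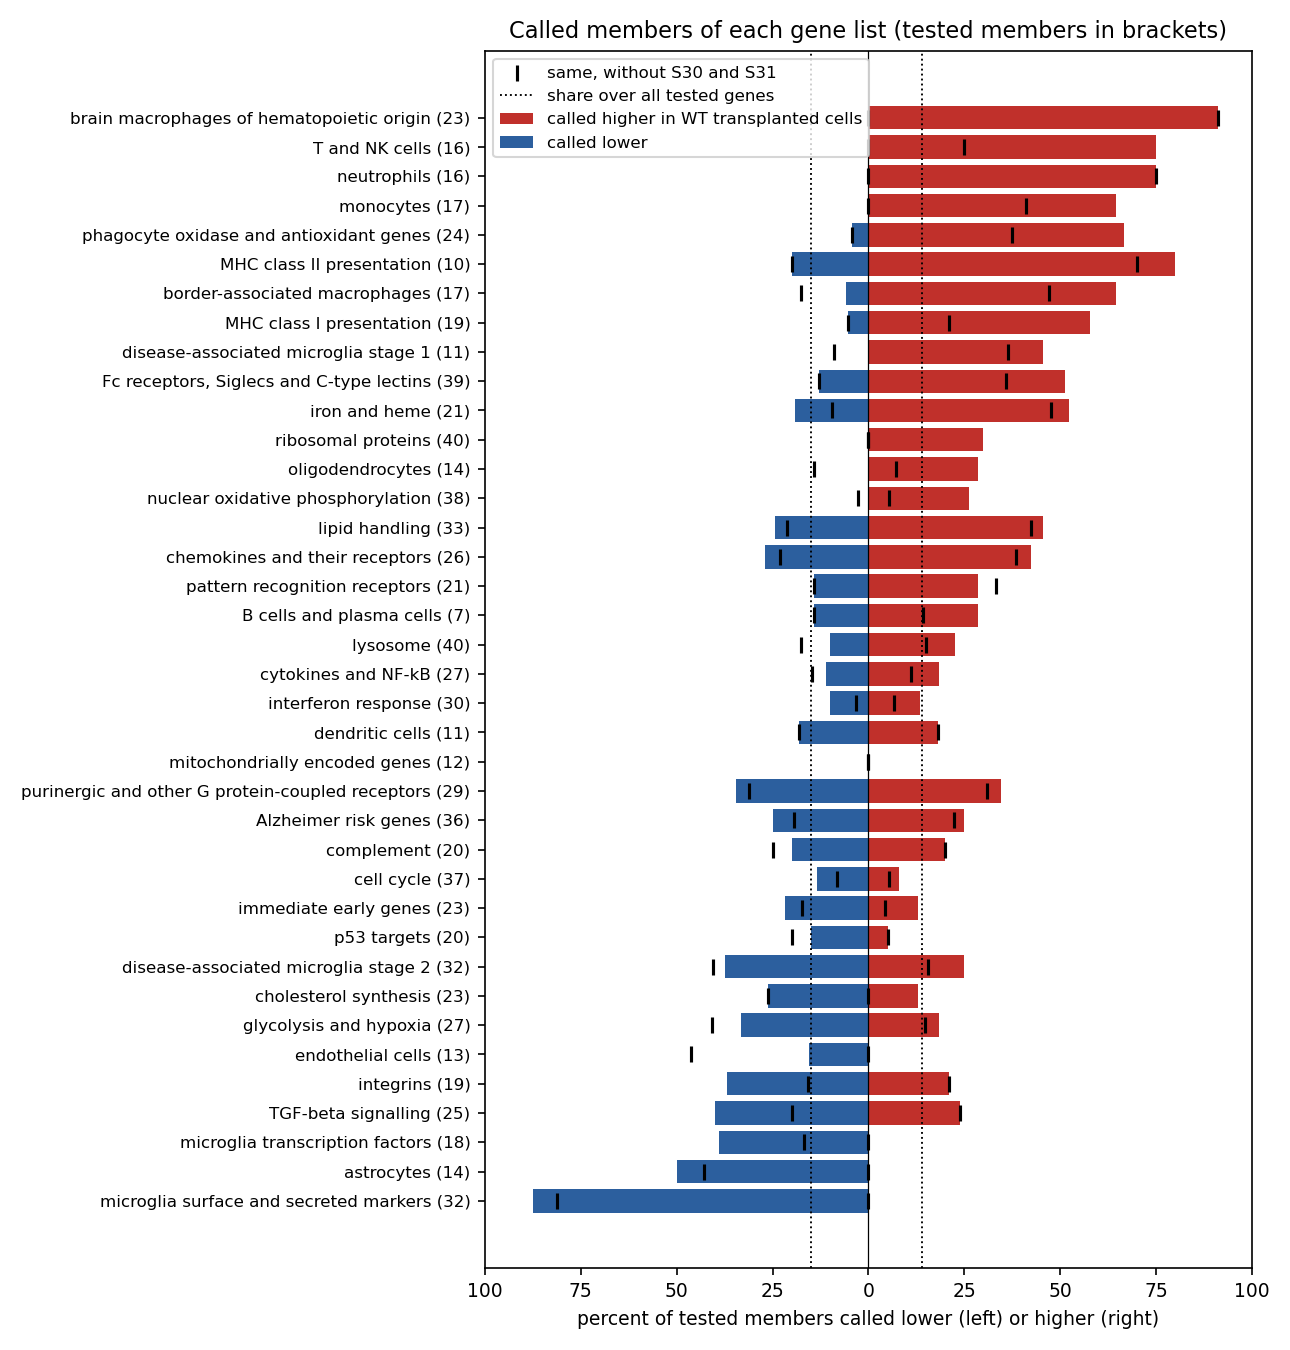
Bars give the percent of tested members of each gene list called higher (red, right) and lower (blue, left) in WT transplanted cells against WT 5xFAD microglia, black ticks the same without S30 and S31, and dotted lines the shares over all tested genes (14.1% and 14.9%). The list of hematopoietic-origin genes stands at 21 of 23 higher and the microglia marker list at 28 of 32 lower, and the T and NK cell list changes most without S30 and S31, to 4 of 16.

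The KO pair set transplanted cells against microglia in 7 other libraries. There both groups were labelled Trem2-KO, with Trem2 reads lower but not absent, as given above. The hosts and the microglia shared the Trem2-KO genotype, so that the KO pair is not the same contrast as the WT pair. In it 1392 genes were higher in KO transplanted cells (12.1%) and 1532 lower (13.3%), and 2240 and 2105 without the KO microglia library S26, which stood apart in its group. In a model of the compared groups only, 885 were higher and 1138 lower. Both pairs were called from 1 fit with the same spread per gene, so the overlap of their calls is not that of independent tests. Of the genes higher in the WT pair 796 were higher in the KO pair, 48.8% of the WT list and 57.2% of the KO list. Of the genes lower in the WT pair 937 were lower in the KO pair, 54.6% and 61.2% of the lists. Called in opposite directions were 64 genes higher in the WT pair and lower in the KO pair, and 8 genes the other way. The shared genes without S30 and S31 numbered 660 higher (69.4% of the WT list and 48% of the KO list) and 940 lower (71.6% and 58.2%), and those called in opposite directions 39 and 5. Across all tested genes, which are not independent replicates, the log2 fold changes of the pairs correlated at r = 0.713 and rho = 0.568. The microglia marker list had 24 of 32 lower and 0 higher in the KO pair, and the hematopoietic-origin list 17 of 23 higher and 2 lower. Other lists did not keep their direction. The monocyte list had 3 of 17 higher and 12 lower in the KO pair, against 11 higher and 0 lower in the WT pair. For 11 of its members the difference between the pairs was called. Border-associated macrophage genes had 6 of 17 higher and 4 lower there, and Fc receptors, Siglecs and C-type lectins 6 of 39 higher and 10 lower. Apoe stood at 3.97 in the KO pair, Ms4a7 at 4.08, Sall1 at −4.88, H2-Aa at 1.71 and H2-Oa at −1.33.

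The difference between the pairs was tested gene by gene. The log2 fold change was higher in the WT pair than in the KO pair for 231 genes (2.00%) and lower for 110 (0.952%), for 114 and 32 genes without S30 and S31, and for 60 and 10 with the closest pairs of libraries averaged. By the rule for named genes, which takes well-measured genes, the largest positive differences were in Ttr (6.75, SE 1.37, adjusted p = 0.00972), Enpp2 (6.50, SE 1.32, adjusted p = 0.01) and the neutrophil genes Camp (4.63), S100a9 (4.62), S100a8 (4.61) and Lcn2 (4.50). Without S30 and S31 the differences of Ttr (6.4, adjusted p = 0.0769) and Enpp2 (6.12, adjusted p = 0.0814) lost their calls, and those of the 4 neutrophil genes kept them. S100a8, a calcium-binding protein of neutrophils, had 2234, 4123, 5043 and 5086 normalized reads in WT transplanted cells, against 832, 846 and 1185 in WT 5xFAD microglia, and 6323, 2384, 3344 and 3469.6 in KO transplanted cells, against 29831, 9755 and 33425 in KO 5xFAD microglia. KO 5xFAD microglia had the highest values, and the neutrophil list summed to 58685 to 147798 there, against 17558 to 39551 in KO transplanted cells, so that the KO pair had 14 of 16 members lower. The part of neutrophils in these differences was not tested. Ttr, the transthyretin gene of the choroid plexus, had 1817, 10375, 7179 and 6943 normalized reads in WT transplanted cells, against 550.3, 536 and 478 in WT 5xFAD microglia, and 171, 128, 40.5 and 1657 in KO transplanted cells, against 2487, 1116 and 2881 in KO 5xFAD microglia.

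All 12 of the largest rises and all 12 of the largest falls were called in the same direction in the KO pair. They were chosen by their values in the WT pair, which favours larger changes there than in the KO pair. Of the rises 7 were larger in the WT pair, among them Gdf3 (2.38, SE 0.47, adjusted p = 0.00831), Ms4a7 (1.78, SE 0.29, adjusted p = 0.00214) and Clec12a (1.79, SE 0.34, adjusted p = 0.00652), and 4 without S30 and S31. Gdf3 (1.83, adjusted p = 0.0662), Cyp4f18 (1.45, adjusted p = 0.0627) and Acp5 (1.37, adjusted p = 0.224) then lost their calls. Among the largest falls only Siglecf passed the test of the difference. Acp5 (1.74, SE 0.43, adjusted p = 0.0331) lost its call without 1 of S22, S24, S25, S27, S30, S31, S32 or S35 (1.47 to 2.01 with 1 library left out). The means of Ms4a7 were 22563 ± 5178 in WT transplanted cells and 17749 ± 2499 in KO transplanted cells (SD, n = 4 each), 381 ± 50.8 in WT 5xFAD microglia and 1088 ± 354 in KO 5xFAD microglia (n = 3 each). Those of Clec12a were 6776 ± 720 in WT transplanted cells and 7307 ± 1547 in KO transplanted cells (n = 4 each). In WT 5xFAD microglia Clec12a averaged 220 ± 43.1, and in KO 5xFAD microglia 872 ± 380 (n = 3 each). A larger log2 fold change in the WT pair can thus come from lower values in its microglia. The largest negative differences among well-measured genes were in Ank (−2.97, SE 0.16, adjusted p = 1.02e-08), Siglecf (−2.53, SE 0.33, adjusted p = 0.000208), the sialyltransferase St8sia6 (−2.07), the transcription factor Bhlhe40 (−1.90), Axl (−1.85, SE 0.22, adjusted p = 0.000118) and Csf1 (−1.80). Axl averaged 56392 ± 2934 in WT transplanted cells and 47756 ± 11951 in KO transplanted cells (n = 4 each), 14208 ± 73.2 in WT 5xFAD microglia and 3244 ± 81.2 in KO 5xFAD microglia (n = 3 each). Ank averaged 1982 ± 20.9 in WT transplanted cells and 2154 ± 288 in KO transplanted cells (n = 4 each), 9903 ± 630.2 in WT 5xFAD microglia and 1370.2 ± 146 in KO 5xFAD microglia (n = 3 each). Siglecf averaged 50.1 ± 14.4 in WT transplanted cells and 84.4 ± 16.0 in KO transplanted cells (n = 4 each), 1945 ± 122 in WT 5xFAD microglia and 578 ± 88.7 in KO 5xFAD microglia (n = 3 each). For each of these 3 genes all KO 5xFAD microglia libraries lay below all WT 5xFAD microglia libraries. Bhlhe40 lost its call without 1 of S22, S23, S24, S33 or S35 and Csf1 without 1 of S22, S23, S24, S29 or S33, with differences between −2.12 and −1.65 for Bhlhe40 and between −2.04 and −1.53 for Csf1. The number of differences called depended on single libraries, with 810 higher and 853 lower without S26 and 377 and 253 without S28. It was 153 and 31 without S22 and 151 and 45 without S27, and between 40 and 73 were lower without 1 of S23, S24, S25, S30, S31, S33 or S35.

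**Figure D5:**
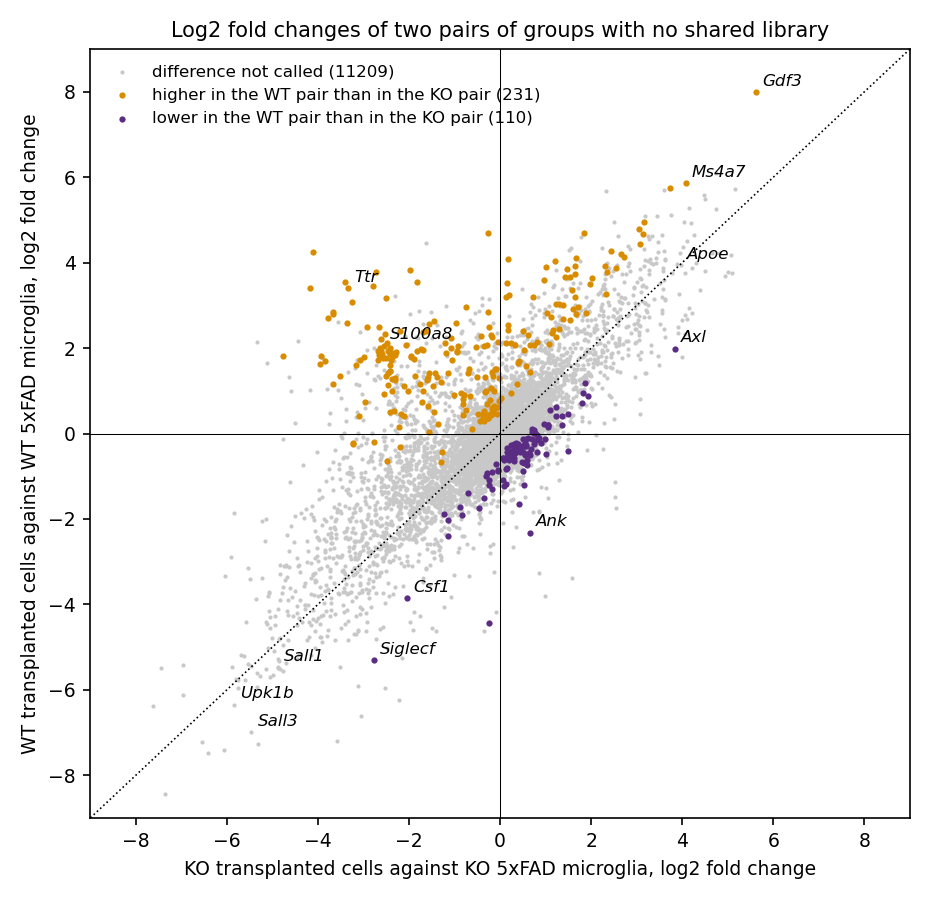
Each point is a tested gene, with the log2 fold change of KO transplanted cells against KO 5xFAD microglia (x axis) and of WT transplanted cells against WT 5xFAD microglia (y axis). Orange points (231) had a higher and purple points (110) a lower log2 fold change in the WT pair, and the pairs share no library.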

How the data were processed

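RNA of CD45+CD11b+ cells was sequenced in 17 libraries. The reads were handled with bcl2fastq, STAR 2.5.2b, HTSeq, RSEM and DESeq2 3.17 and the builds mm10 and GRCm38.p6, per the submitters' processing notes. The deposited table gives a normalized signal by the authors, and 100% of the low values checked in each library were whole reads divided by 1 factor per library (within 0.02 of a whole number). PCR reads carry no molecular identifiers, so that depth limits counting error only. Reads per library ranged from 16044078 to 30606394.

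Columns were assigned to groups by their names. Genes that reached 10 in 3 or more of the 7 libraries were tested with limma 3.58.1 in R 4.3.3 on log2(value + 1), with group means over all 17 libraries, empirical Bayes with a trend and Benjamini-Hochberg adjustment over 11550 genes (threshold 0.05). The contrasts were WT transplanted cells over WT 5xFAD microglia, the KO pair, and their difference. edgeR 4.0.16 and DESeq2 1.42.0 on the recovered reads, other pseudocounts, filters and scalings, array weights and left-out libraries were alternatives. The fit was tested on simulated data. Named were Trem2 and Tyrobp, the 12 largest non-overlapping rises and falls above the median level, the 6 largest differences between pairs each way and up to 6 called members of each list by p, and others as chosen after their values were seen. The members and gene lists were chosen with earlier results of these data known. Gene positions are from GENCODE (GRCm38) and promoters from RefSeq (GRCm38.p6). Some genes are not reported here.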

Additional observations from a re-analysis of the deposited data

Results flagged for a closer look

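A single WT transplanted library lay far from the other 3 (Dixon's ratio above its 95% critical value on the log2 scale) for some of the genes named and for lists summed per library. Chance flags about 1 in 20 groups of 4, and 19 of the 274 values checked (6.93%) were flagged. S28 stood apart for Ccl3 (1055), Cd9 (13652), Clec4e (66.0), Enpp2 (1272), H2-Ob (1048), Hmox1 (2506), Msr1 (3610.0), P2ry12 (10483) and S100a9 (2057), in normalized reads. S28 stood apart also for Spp1 (4776), in normalized reads. S29 stood apart for H2-Oa (325), Il10 (2.27), Mrc1 (4914) and Sgce (35.2), in normalized reads. S31 stood apart for C1ra (393), C2 (17.1) and Ccnd2 (343), in normalized reads. S28 also stood apart in the summed value of pattern recognition receptors (79483 normalized reads). S28 also stood apart in the summed value of purinergic and other G protein-coupled receptors (108121 normalized reads).

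The log2 fold change of the WT pair differed from that of the KO pair, by the test of the difference itself in limma, for the following named genes. For genes with a higher log2 fold change in the WT pair the difference is given in brackets. It was largest for Kl (8.36), Sostdc1 (7.58), Ttr (6.75), Enpp2 (6.50), Clic6 (6.24), Clec4e (5.36), Clec4d (4.97), Camp (4.63) and S100a9 (4.62). It followed for S100a8 (4.61), Lcn2 (4.50), Ly6c2 (3.63), Ccl8 (3.37), Pparg (3.07), Pira2 (2.97), Stap1 (2.87), Cfp (2.78) and C3 (2.74). Next came Lgals3 (2.51), Gdf3 (2.38), Cd300ld (2.35), Nr1h3 (2.21), Klra2 (2.02), Clec12a (1.79), Ms4a7 (1.78), Acp5 (1.74) and Tnfaip2 (1.69). Smaller values stood for Clec4n (1.63), Lyz1 (1.63), Pirb (1.62), Gstm1 (1.60), Pf4 (1.55), Cyp4f18 (1.52), Lyz2 (1.42), Aoah (1.37) and Pfkp (1.34). The smallest were those of H2-Eb1 (1.33), Ccr1 (1.33), H2-Aa (1.26), Blvrb (1.22), Bcl3 (1.15), Ccnd1 (1.14), Pltp (1.03), Prdx5 (0.78) and Ncf4 (0.71). For genes with a lower log2 fold change in the WT pair the same difference was negative. It was largest for Ank (−2.97), Siglecf (−2.53), St8sia6 (−2.07), Bhlhe40 (−1.90), Axl (−1.85), Csf1 (−1.80), Sulf2 (−1.73), Itgax (−1.49) and Hmgcs1 (−0.97). It followed for Tlr2 (−0.69) and H2-Ob (−0.64). Of these 56 differences, 33 kept their call without S30 and S31 and with any 1 of the 14 libraries left out. The call was lost without S30 and S31 for 21, with the difference then in brackets: Acp5 (1.37), Bcl3 (1.23), Ccl8 (2.39), Ccnd1 (1.27), Clic6 (6.19), Cyp4f18 (1.45), Enpp2 (6.12), Gdf3 (1.83), H2-Ob (−0.67), Hmgcs1 (−0.91), Lgals3 (2.00), Lyz1 (1.48), Lyz2 (1.19), Ncf4 (0.55), Nr1h3 (2.18), Pfkp (1.17), Pltp (0.85), Prdx5 (0.59), Sostdc1 (7.49), Tlr2 (−0.77) and Ttr (6.4). Leaving out 1 library ended it for 17, with the number of libraries that did so in brackets: Acp5 (8), Bcl3 (7), Bhlhe40 (5), Ccl8 (2), Ccnd1 (12), Clic6 (1), Csf1 (5), H2-Ob (9), Hmgcs1 (3), Lyz1 (11), Lyz2 (3), Ncf4 (2), Nr1h3 (9), Pltp (5), Prdx5 (2), Sostdc1 (3) and Tlr2 (4). Neutrophil markers summed to 58685 to 147798 normalized reads in KO 5xFAD microglia, above the other groups, and the part of neutrophils in these differences was not tested.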

How the results depend on the processing

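The number of genes higher in WT transplanted cells (1630) was 3054 with array weights, 951 without S30 and S31 and 961 with the closest pairs of libraries averaged, and 1158 to 1830 with 1 library left out. The number lower (1716) was 3117 with array weights, 1052 with the closest pairs averaged and 1222 to 1836 with 1 library left out. In the KO pair 1392 genes were higher, 885 in a model of the compared groups only, 3145 with array weights and 1021 to 2240 with 1 library left out. There 1532 were lower, 3150 with array weights and 1173 to 2105 with 1 library left out. For the difference between the pairs, 231 genes were higher, 2176 with array weights, 494 by DESeq2, 114 without S30 and S31, 60 with the closest pairs averaged and 151 to 810 with 1 library left out. For it 110 were lower, 2381 with array weights, 247 by DESeq2, 32 without S30 and S31, 10 with the closest pairs averaged and 31 to 853 with 1 library left out. On reads recovered from the table edgeR called 1398 genes higher and 1656 lower in WT transplanted cells, and DESeq2 1811 and 1732. C1qc had a log2 fold change of −0.33 under quantile normalization (adjusted p = 0.0475) and 0.14 as reported. Where values changed, the cause was not tested. Of the calls, 48.7% were higher, and 42% to 51.1% under the alternatives. No paired analysis was possible because the columns carry no replicate number that the groups share. With 4 and 3 libraries a group and 18065645 to 28897267 reads per library, small changes of genes with low values were not detectable.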

Other observations

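The genes of this section were chosen after their values were seen. With a mean of 500 or more normalized reads in WT transplanted cells and under 50 in WT 5xFAD microglia and normal microglia there were 6 genes, namely Gdf3, Vnn3, Acp5, Apoc4, Fam110b and Stap1, and 4 without S30 and S31. Stap1, an adaptor of B cells and myeloid cells, had 461, 489, 564 and 555 normalized reads in WT transplanted cells, against 26.5, 10.6 and 23.4 in WT 5xFAD microglia. With 500 or more in both kinds of microglia and under 50 in WT transplanted cells there were 15 genes (13 without S30 and S31), among them Sall3, Upk1b, Liph, Mlph, Nav3, Gp9 and Pear1. Gp9 and Pear1 are better known from platelets. Gp9, part of the receptor for von Willebrand factor, had 29.1, 15.9, 25 and 24.4 normalized reads in WT transplanted cells, against 519.8, 513 and 469.5 in WT 5xFAD microglia. Pear1, a receptor at platelet contacts, had 20.1, 42.1, 49.9 and 72.0 normalized reads in WT transplanted cells, against 742, 748 and 716 in WT 5xFAD microglia.

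Baiap2l2 and Mamdc2 had means of 17.7 and 9.26 in WT transplanted cells, 668 and 640.4 in WT 5xFAD microglia and 0.650 and 0.757 in normal microglia. They were the 2 genes at 500 or more in WT 5xFAD microglia and under 50 in the other groups named, and 2 met these limits without S30 and S31. Baiap2l2 had 4.47, 9.10, 30.2 and 26.8 normalized reads in WT transplanted cells, against 596, 664 and 744 in WT 5xFAD microglia.

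Of genes known from the choroid plexus, 5 were looked at after values were seen, Ttr, Enpp2, Kl, Clic6 and Sostdc1, and Enpp2 is also in the oligodendrocyte list. Kl, the klotho gene, had 72.7, 239.9, 167 and 194 normalized reads in WT transplanted cells, against 14.7, 4.52 and 5.21 in WT 5xFAD microglia. Clic6 had 50.3, 69.4, 64.4 and 62.2 normalized reads in WT transplanted cells, against 13.8, 11.3 and 0 in WT 5xFAD microglia. Sostdc1 had 26.8, 123, 53.9 and 79.3 normalized reads in WT transplanted cells, against 14.7, 0.750 and 6.51 in WT 5xFAD microglia. Without S30 and S31 the log2 fold changes of Ttr (3.06, adjusted p = 0.105), Enpp2 (2.33, adjusted p = 0.212), Clic6 (3.41, adjusted p = 0.0743) and Sostdc1 (3.31, adjusted p = 0.149) lost their calls. Epithelial cells of the choroid plexus do not carry the CD45 and CD11b of the gate, and the part of such RNA was not tested.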
